A study of Mus musculus with 6 samples.

Results

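The 8 genes described here mark oligodendrocyte precursor cells, the dividing glia that give rise to myelin-forming oligodendrocytes. They are Pdgfra, Cspg4, Ptprz1, Matn4, Olig1, Olig2, C1ql1 and Lhfpl3, taken by symbol from a list of precursor markers, and all 8 were found among 24411 genes. RNA of the corpus callosum, the axon tract that joins the cerebral hemispheres, was sequenced on postnatal day 4 in Mettl14 cKO mice (3 libraries) and in WT mice (3 libraries). The tissue was cut by hand out of frozen brain sections of B6 mice, so it holds glia and vessels as well as axons. Mettl14 is part of the m6A writer, the complex that puts a methyl group on adenosines of mRNA. The labels call the samples callosal axon. They give neither the Cre driver nor the floxed alleles of the cKO, and they name no litter, sex or pooling of animals.

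Precursors arise from ventricular zone progenitors, migrate into white matter, divide there under the growth factor PDGF-A, and then leave the cycle to mature. PDGF-A acts through the receptor encoded by Pdgfra. The paired transcription factors OLIG1 and OLIG2 set the oligodendrocyte fate, and proteoglycans such as NG2 and PTPRZ1 coat the precursor surface and bind matrix and growth factors.

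Total expected counts per library were 670462 to 1208382 in cKO and 843647 to 1268430 in WT. Mettl14 itself had 2, 7 and 2 counts in cKO libraries and 11, 8 and 5 in WT libraries, so its loss was not resolved at this depth (exact permutation of CPM over libraries, two-sided, p = 0.3). Xist was counted in the cKO libraries alone and the Y-linked Eif2s3y in the WT libraries alone. Differences of genotype and of sex therefore cannot be told apart here, for any gene. Libraries also differed in how often genes with few exons were nearly lost. Of 232 genes with 1 to 3 exons and a mean of at least 50 CPM (expected counts scaled to the library total), 9.48%, 2.59% and 21.1% had 0 or 1 count in cKO replicates 1 to 3, against 30.2%, 6.47% and 21.6% in WT replicates 1 to 3. Among 2773 genes with more exons the share was 0.288% to 2.27% in cKO and 0.469% to 2.63% in WT. Genes that differ between the groups count toward these shares too. Neurod2 and Id2, with 2 and 3 exons, were at 0 in every WT library and well counted in every cKO library.

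Of the 8 precursor genes, 1 fell in cKO (Pdgfra) and 0 rose, by edgeR's quasi-likelihood test at an adjusted p below 0.05 over all 5918 genes tested. Across those genes 0.422% were called lower and 0.49% were called higher in cKO. Pdgfra, Ptprz1, Matn4 and Olig1 passed the filter on low counts, and Cspg4, Olig2, C1ql1 and Lhfpl3 did not. Matn4 passed it through its WT counts alone, and Olig1, at 0 in 1 cKO library, needed its WT counts to pass. At an unadjusted p below 0.05 edgeR had 3 of the tested members lower and 0 higher, where 5.41% of all genes were lower. DESeq2 called 3 members lower and 0 higher (Pdgfra, Ptprz1 and Matn4), against 3.06% of all genes lower. With limma-voom 1 member was called lower and 0 higher, against 0.338% of all genes lower. With upper-quartile scaling, with log2(TPM + 1) and with log2(TPM + 0.1), the last 2 in limma, 2 members were called lower (Pdgfra and Matn4), against 0.507%, 0.389% and 0.304% of all genes. In 5 of the 8 genes, of which Cspg4 was not tested, the CPM of every cKO library lay below that of every WT library, as it did in 9.45% of the 5918 tested genes. The reverse held for 0 of the 8 genes and for 10.4% of all tested genes. In bulk RNA, fewer precursor cells and less RNA per precursor cell cannot be told apart. The cut tissue also differed in its neuronal RNA, since cortical excitatory neuron markers summed to 5947 to 6665 CPM in cKO and 447 to 1196 CPM in WT. The part of a different share of cortex in the cut tissue in every precursor value was not tested.

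**Figure D1:**
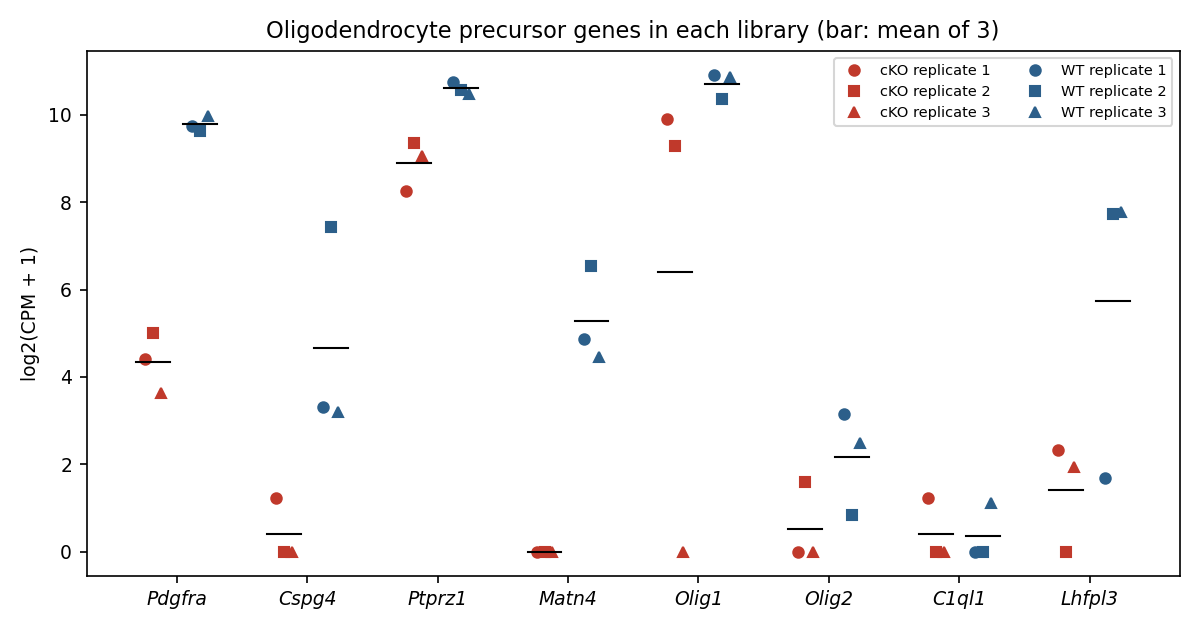
Each point is 1 library, as log2(CPM + 1) on the vertical axis, for cKO (red, left) and WT (blue, right), with the mean of 3 libraries as a bar. Pdgfra, Ptprz1, Matn4, Cspg4 and Olig1 separate the groups, Olig1 has 1 cKO library at 0, and the points of the 2 groups overlap for Olig2, C1ql1 and Lhfpl3.

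Pdgfra encodes the receptor tyrosine kinase for PDGF-A that keeps precursors dividing. The gene lies on chromosome 5 (75152292 to 75198215, plus strand, GRCm38) and has 23 exons. Its counts were 15, 31 and 8 in cKO libraries and 764, 989 and 862 in WT libraries. On the CPM scale this was 20.2, 31.0 and 11.3 in cKO, against 858, 794 and 1003 in WT. All 3 cKO libraries were low, all 3 WT libraries were high, and the gap between the groups was far wider than the spread within either. The means were 20.8 ± 9.87 CPM in cKO and 885 ± 107 CPM in WT (SD, n = 3 each). Pdgfra fell by 5.39 on the log2 scale (SE 0.49, edgeR adjusted p = 0.0114), where the SE is worked back from the test's F statistic. Pooled over libraries, WT counts were 39.6 times those of cKO, and the counting interval ran over 30.3 to 52.9. The call of Pdgfra ended when cKO replicate 1, WT replicate 1 or WT replicate 3 was left out (edgeR adjusted p = 0.0895, 0.109 and 0.0895), while the fold change stayed between −5.80 and −5.09 over all 6 such fits.

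The promoters of the 3 genes with the smallest p in edgeR are shown because these genes were low together in cKO. Each sequence is the 250 bases before a RefSeq start site (GRCm38.p6), 5′ to 3′ on the gene's strand. The RefSeq spans of Pdgfra and Ptprz1 begin at 75151322 and 22875315. The Pdgfra window therefore lies after the first base of its span, and the Ptprz1 window includes that of its own. Capitals mark E-boxes, CANNTG, the letters that basic helix-loop-helix factors such as OLIG1 and OLIG2 can bind. The motif reads the same on either strand.
Pdgfra, chr5:75152001-75152250, plus strand: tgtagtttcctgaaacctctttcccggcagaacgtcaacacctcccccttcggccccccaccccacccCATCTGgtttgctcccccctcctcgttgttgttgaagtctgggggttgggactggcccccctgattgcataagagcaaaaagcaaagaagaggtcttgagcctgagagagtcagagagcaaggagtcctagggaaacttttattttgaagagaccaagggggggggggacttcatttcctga
Ptprz1, chr6:22875252-22875501, plus strand: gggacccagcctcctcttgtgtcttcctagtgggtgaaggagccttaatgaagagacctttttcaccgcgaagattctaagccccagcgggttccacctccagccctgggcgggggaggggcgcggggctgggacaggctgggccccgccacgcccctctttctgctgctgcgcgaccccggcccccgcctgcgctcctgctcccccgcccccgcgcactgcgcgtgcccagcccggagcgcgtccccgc
Matn4, first of 2 start sites, chr2:164405161-164405410, minus strand: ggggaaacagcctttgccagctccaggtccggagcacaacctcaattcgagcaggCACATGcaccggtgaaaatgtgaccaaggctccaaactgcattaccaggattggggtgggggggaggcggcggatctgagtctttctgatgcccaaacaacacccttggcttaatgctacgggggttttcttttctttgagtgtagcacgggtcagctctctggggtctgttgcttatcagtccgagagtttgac
Pdgfra had 1 E-box, CATCTG, starting 182 bases before the start site, and Matn4 had 1, CACATG, at 195 bases. Ptprz1 had 0 in this window. Of 32851 promoters in the table, 66.2% held at least 1 CANNTG in a window of the same length. Lhfpl3 held 2 copies of CAGCTG, a form of the E-box found in 4271 of the 32851 promoters. The second Matn4 start site, Cspg4 and Olig2 had 0 E-boxes. A match in letters is no evidence of binding.

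GGACT, the core of the sequence in which the m6A writer most often methylates adenosine, occurred 8 times in the GENCODE transcript of Pdgfra. That is 1.22 per kilobase, against a median of 1.04 per kilobase over 20512 genes. Of the 8 sites 4 were coding, and they are shown with 10 bases on either side, GGACT in capitals. Methylation was not measured in these files.
Pdgfra coding site in exon 5, chr5:75167938-75167962, plus strand: gacctgcagtGGACTtaccctggag
Pdgfra coding site in exon 22, chr5:75192441-75192465, plus strand: agattcacctGGACTtcctaaagag
Pdgfra coding site in exon 22, chr5:75192486-75192510, plus strand: gcatgcgggtGGACTctgataatgc
Pdgfra coding site in exon 22, chr5:75192543-75192567, plus strand: ataagctgaaGGACTgggaaggtgg
Ptprz1 and Cspg4 held 7 sites each, or 0.868 and 0.862 per kilobase, and Matn4 held 4, or 1.74 and 1.78 per kilobase in its 2 transcripts. C1ql1 held 2 (1.36 per kilobase), and Lhfpl3 held 1 in its longer transcript and 0 in the other. The densities of the 8 genes thus lay on either side of the median of all genes.

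Ptprz1 encodes a receptor tyrosine phosphatase that carries chondroitin sulfate chains and binds pleiotrophin. It is made by radial glia and astrocytes as well as by precursors. The gene lies on chromosome 6 (22875502 to 23052916, plus strand) and has 30 exons. It had 225, 655 and 378 counts in cKO libraries and 1538, 1893 and 1225 in WT libraries, or 303, 656 and 535 CPM in cKO and 1727, 1521 and 1426 CPM in WT. The groups did not overlap, and cKO replicate 1 was the lowest. The mean was 498 ± 179 CPM in cKO and 1558 ± 154 CPM in WT (SD, n = 3 each). The log2 fold change was −1.65 (SE 0.33), which did not pass over all genes (edgeR adjusted p = 0.115). Of 20 alternative settings DESeq2 alone called it (adjusted p = 2.91e-06, with 0.0761 to 0.377 over the others).

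Cspg4 encodes NG2, the surface proteoglycan by which precursors are stained, which pericytes also carry. The gene is on chromosome 9 (56865033 to 56899870, plus strand, 10 exons). It had 1, 0 and 0 counts in cKO libraries and 8, 215 and 7 in WT libraries. WT replicate 2 held nearly all of its WT counts, and its WT CPM spread 21.2-fold from the lowest to the highest library. Cspg4 lay below the filter. Pooled WT counts were 188 times those of cKO, but with 1 count in cKO the counting interval ran from 33.4 to 7464. Permuting the CPM over libraries (exact, two-sided) gave p = 0.1, the smallest that 3 libraries against 3 allow. Without WT replicate 2 the ratio was 21.0 (counting interval 3.23 to 884), without cKO replicate 2 it was 111, and without cKO replicate 1 Cspg4 was at least 43.7-fold lower in cKO.

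Matn4 encodes matrilin 4, a secreted adaptor of the extracellular matrix. The gene is on chromosome 2 (164389393 to 164405160, minus strand, 11 exons). It had 0 counts in each cKO library and 25, 115 and 18 counts in WT libraries, or 28.1, 92.4 and 21.0 CPM in WT. Every WT library was above 0, and WT replicate 2 was the highest. Against 3 counts over the cKO group, taken as the floor under a zero, Matn4 was at least 43.1-fold lower in cKO. This bound covers counting error only, not the spread between libraries. Without WT replicate 2 the bound was 20.1-fold, and without cKO replicate 2, the deepest cKO library, 25.5-fold. It did not pass over all genes (edgeR adjusted p = 0.118), but passed with upper-quartile scaling, DESeq2 and limma on log2(TPM + 1) or log2(TPM + 0.1), with adjusted p of 3.01e-06 to 0.332 over 20 alternatives. Rbpjl, on the opposite strand, shares exon sequence with it and had 0 counts over the cKO libraries and 2 over the WT libraries.

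C1ql1 encodes a secreted C1q-like protein that binds the adhesion receptor ADGRB3. It had 1, 0 and 0 counts in cKO libraries and 0, 0 and 1 in WT libraries, at or below 3 counts in either group, so no fold is given. C1ql1 lies on chromosome 11 (102939264 to 102946688, minus strand) and has 2 exons. This precursor marker was not detected above the counting floor in either genotype. A difference was not detectable at this depth (exact two-sided permutation test, p = 1).

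Lhfpl3 encodes a tetraspan membrane protein enriched in precursors. It lies on chromosome 5 (22746059 to 23275597, plus strand) and has 4 exons. It had 3, 0 and 2 counts in cKO libraries and 2, 261 and 187 in WT libraries. WT replicates 2 and 3 were high, at 210 and 218 CPM, while WT replicate 1, at 2.25 CPM, lay within the cKO range of 0 to 4.03 CPM. The groups therefore overlapped, and the exact two-sided permutation test gave p = 0.3. Pooled WT counts were 73.6 times those of cKO, with a counting interval of 31.3 to 228 that does not cover the spread between WT libraries. The ratio was 128 without cKO replicate 1 and 43.6 without cKO replicate 2. Its WT CPM spread 96.9-fold from the lowest to the highest library, around a mean of 143 CPM. Of 5091 genes with a WT mean of at least 20 CPM, 15.4% ranged over 10-fold, or down to 0, among the WT libraries. The same held for 18.4% of 5057 genes among the cKO libraries. At a mean of at least 100 CPM the shares were 7.62% of 1693 genes in WT and 12.1% of 1830 in cKO.

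Olig1 encodes a basic helix-loop-helix factor of the oligodendrocyte lineage, from a gene with 1 exon on chromosome 16 (91269772 to 91271933, plus strand). It had 706, 625 and 0 counts in cKO libraries and 1719, 1637 and 1595 in WT libraries. On the CPM scale this was 949, 626 and 0 in cKO, against 1931, 1315 and 1857 in WT. The groups did not overlap, and cKO replicate 3 stood apart from the other two cKO libraries. Olig1 did not pass (log2 fold change −1.70, SE 1.47, with an adjusted p of 0.724 in edgeR). Without cKO replicate 3 the log2 fold change was −1.10 with an unadjusted p of 0.0134, and it did not pass over all genes (edgeR adjusted p = 0.257). In cKO replicate 3, 21.1% of well-expressed genes with 1 to 3 exons were at 0 or 1 count. The shares were 30.2% and 21.6% in WT replicates 1 and 3, where Olig1 had 1719 and 1595 counts. The part of few-exon loss in the Olig1 value of 0 was not tested.

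**Figure D2:**
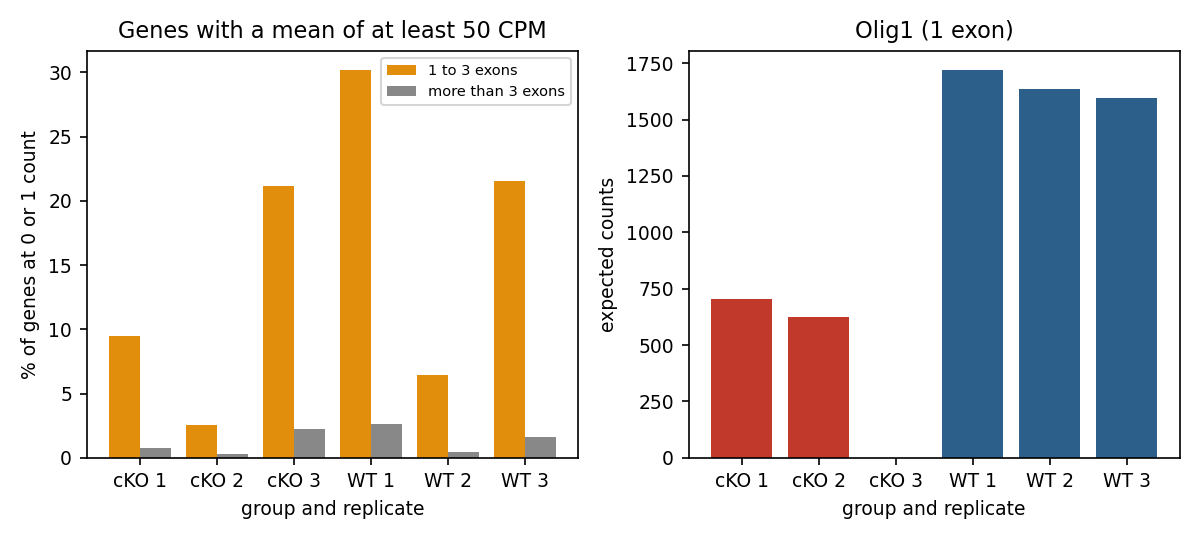
Left, the percentage of genes with a mean of at least 50 CPM that had 0 or 1 count in each library, for genes of 1 to 3 exons (orange) and of more than 3 exons (grey). Right, the expected counts of Olig1 in the same libraries, with 706, 625 and 0 in cKO and 1719, 1637 and 1595 in WT.

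Olig2, the partner of Olig1 and the factor required for the oligodendrocyte fate, lies on the same chromosome (91225457 to 91228677, plus strand) and has 2 exons. It had 0, 2 and 0 counts in cKO libraries and 7, 1 and 4 in WT libraries. All 6 values were low, and they overlapped. The part of few-exon loss in them was not tested. Pooled WT counts were 4.91 times those of cKO (counting interval 1.09 to 45.2), and permuting the CPM over libraries (exact, two-sided) gave p = 0.2. The ratio was 2.91 when WT replicate 1 was left out and 7.70 when WT replicate 2 was. With cKO replicate 2 left out, Olig2 was at least 1.94-fold lower in cKO. In WT the level of Olig2 was 2.83 ± 2.3 TPM (the length-scaled share of all transcripts), against 1252 ± 209 TPM for Olig1 (SD, n = 3 each). The GGACT sites of both genes are shown because the pair is encoded side by side.
Olig1 3′ UTR site in exon 1, chr16:91271514-91271538, plus strand: atcggtgttcGGACTtactaaaata
Olig2 coding site in exon 2, chr16:91226392-91226416, plus strand: ctggggccatGGACTcggacgccag
Olig2 coding site in exon 2, chr16:91226499-91226523, plus strand: ttcacaggagGGACTgtgtcctcgt
Olig1 held 1 site, or 0.463 per kilobase, and Olig2 held 2, or 0.791 per kilobase.

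On the length-scaled TPM level, Olig1, Ptprz1 and Pdgfra led by mean in that order in both groups. Lhfpl3 came next by mean in WT. The order of the other genes, Lhfpl3 among them, is not read in cKO, where each had 0 to 3 counts per library. In cKO, Olig1 (340 ± 312 TPM) and Ptprz1 (85.7 ± 34.2 TPM) overlapped in range, and Pdgfra (4.24 ± 1.62 TPM) came next and did not overlap with either Ptprz1 or Lhfpl3 (1.18 ± 1.02 TPM). Lhfpl3, C1ql1, Olig2 and Cspg4 were at 0 to 1.82 TPM in cKO and Matn4 at 0. In WT, Olig1 came first, followed by Ptprz1 at 276 ± 38.4 TPM and Pdgfra at 193 ± 9.47 TPM, with no overlap between these neighbours. Lhfpl3 (74.5 ± 63.7 TPM), Matn4 (33.8 ± 30.6 TPM) and Cspg4 (11.8 ± 17.99 TPM) overlapped each other in range in WT, as did Cspg4, Olig2 and C1ql1 (0.54 ± 0.935 TPM). Pdgfra was at 0.0829, 0.0588 and 0.0263 times the TPM of Ptprz1 in cKO libraries, and at 0.618, 0.649 and 0.875 times in WT libraries. The TPM of the 8 genes summed to 668, 514 and 113 in cKO libraries and 1970, 1721 and 1842 in WT libraries. Olig1 made up 91.9%, 78.7% and 0% of that sum in cKO and 73.4%, 59.9% and 69.5% in WT. Without Olig1 the sums were 54.0, 110 and 113 TPM in cKO and 524, 691 and 563 TPM in WT. The number of the 8 genes with any count was 6, 4 and 3 in cKO libraries and 7, 7 and 8 in WT libraries.

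**Figure D3:**
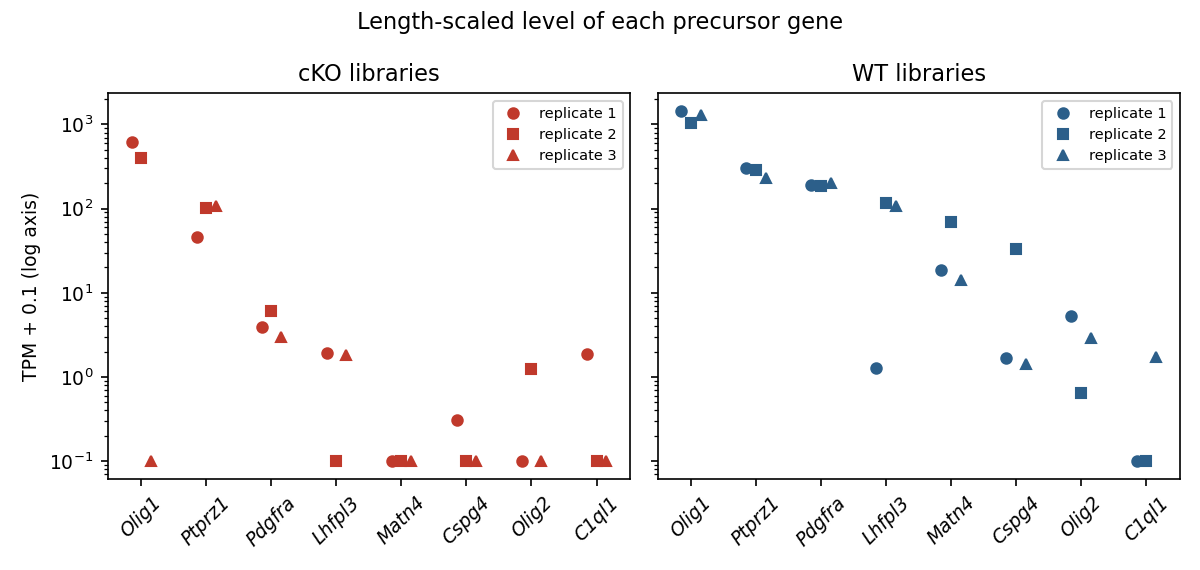
TPM + 0.1 of each gene on a log axis, cKO libraries left and WT libraries right, genes ordered by their WT mean, with 1 symbol per replicate. Olig1, Ptprz1 and Pdgfra lead in WT, and Pdgfra lies further below Ptprz1 in cKO than in WT.

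Transcripts of 1 gene were not used evenly across libraries, as far as RSEM's estimates tell. Pdgfra was assigned to its transcript of 6553 bases in full in all libraries but WT replicate 2, where the one of 6570 bases took 25.03% of its TPM. Matn4 was assigned to its transcript of 2243 bases by 32.8%, 94.2% and 100% in WT replicates 1 to 3, and to the one of 2508 bases for the rest. Lhfpl3 was read mainly as its transcript of 2933 bases in WT replicates 2 and 3, at 91.2% and 100%. The files list 1 transcript of Ptprz1, of 8068 bases, so its shorter forms were not counted apart.

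The genes nearest to Pdgfra in profile were sought among 4955 genes with a mean of at least 20 CPM, by the root mean square distance between log2(CPM + 1) values centred on each gene's mean over the 6 libraries. Eif2s3y was nearest (0.494), followed by Ednrb (0.594), Aldoc (0.637), Ccna2 (0.736), Matn4 (0.832) and Dlx1as (0.999), in log2 units. Among these nearest genes were a precursor gene, Matn4, and a Y-linked gene, Eif2s3y. Both had 0 counts in every cKO library, so their distances depend on the 1 added to CPM before the log. Ptprz1 ranked 103 at a distance of 1.93 and Olig1 2766 at 2.92.

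Of 20 other genes enriched in precursors, 10 were tested, 9 of them with a negative log2 fold change, and 0 passed in either direction with edgeR (4 lower and 0 higher at an unadjusted p below 0.05, 2 lower with DESeq2, 0 with limma-voom). Their median log2 fold change was −1.38, against 0.07 for all tested genes. Sox6, a SOX factor of precursors, stood at −2.75 (SE 0.77) and the matrix gene Emid1 at −1.39 (SE 0.40). The adaptor gene Afap1l2 stood at −1.52 (SE 0.60) and the adhesion gene Cntn1 at −1.37 (SE 0.56). Sox10, the factor that drives the lineage from precursor to oligodendrocyte, had 0 counts in the cKO libraries and 0, 1 and 1 in the WT libraries, so this defining marker was not detected above the floor in either group. Neu4 had 0 counts in cKO and 62 in WT, all of them in WT replicate 2.

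The PDGF ligands were thinly counted. Pdgfa, the ligand of PDGFRA, had 9, 18 and 1 counts in cKO libraries and 4, 38 and 8 in WT libraries. Of 14 listed genes of PDGF signalling 8 were tested and 0 passed in either direction with edgeR (1 lower and 1 higher at an unadjusted p below 0.05, 0 with DESeq2 and limma-voom), with a median log2 fold change of 0.02. Pdgfrb, the receptor of pericytes, stood at −1.26 (SE 0.36). Sos1 stood at 1.12 (SE 0.40), Grb2 at 1.18 (SE 1.24) and Src at −0.55 (SE 0.42), which are carriers of the signal inside the cell.

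Of 11 ligands, partners and substrates of PTPRZ1, 10 were tested and 0 passed with edgeR (4 lower and 0 higher at an unadjusted p below 0.05, 3 lower with DESeq2, 0 with limma-voom), with a median log2 fold change of −0.56. Ptn, the ligand pleiotrophin, had 635, 1153 and 398 counts in cKO libraries and 1527, 1967 and 1642 in WT libraries, and its log2 fold change was −1.02 (SE 0.29). The matrix ligand Tnc stood at −1.13 (SE 0.36) and the kinase Fyn at −0.60 (SE 0.21). Of 7 NG2 partners and sheddases 6 were tested and 0 passed (edgeR, 0 at an unadjusted p below 0.05, 0 with DESeq2 and limma-voom), with a median of −0.13. Among them Fn1 stood at −0.996 (SE 0.42), Itgb1 at −1.45 (SE 0.83), Grip1 at −0.39 (SE 0.40) and Sdcbp at 0.36 (SE 0.51).

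Among 20 partners and regulators of the OLIG factors 7 were tested. Id2, whose protein blocks basic helix-loop-helix dimers, was the 1 gene called by edgeR, higher in cKO, while 0 were called lower. At an unadjusted p below 0.05 edgeR had 1 lower and 3 higher. DESeq2 called 1 lower and 2 higher, and limma-voom 0 lower and 1 higher. Id2 has 3 exons and had 0 counts in each WT library, against 468, 591 and 135 counts in cKO libraries (edgeR adjusted p = 0.0292), or at least 486-fold higher against 3 counts over the WT group and at least 284-fold without WT replicate 2. It passed the filter through its cKO counts alone. Tcf4, an E protein that pairs with OLIG factors, stood at 0.52 (SE 0.20) and Zeb2 at 1.42 (SE 0.28). The chromatin remodeler Chd7 stood at −2.57 (SE 0.65). In edgeR none of these passed the threshold. The list's median log2 fold change was −0.30 and its mean 1.32. That mean includes the fitted value of Id2, 11.7, which depends on the method's prior count because Id2 had 0 counts in WT. It is therefore not read as a direction of the list. Of 11 relatives of C1ql1, Lhfpl3 and Matn4 and the C1QL receptor gene, only Adgrb3 was tested, with 97, 135 and 91 counts in cKO libraries and 114, 107 and 90 in WT libraries, and it did not pass (edgeR log2 fold change 0.31, SE 0.43).

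Markers of later stages and of other cells are given beside the precursor genes, list by list. Newly committed oligodendrocyte genes summed to 860 to 1023 CPM in cKO and 3047 to 3312 CPM in WT. Fyn alone made up 740, 703 and 693 CPM of these sums in cKO libraries and 1037, 1190 and 1010 CPM in WT libraries. Sirt2, a deacetylase gene, was called lower (log2 fold change −2.44, SE 0.37, edgeR adjusted p = 0.0397). Bcas1, Enpp6 and Myrf were also called lower, but they passed the filter on low counts through their WT counts alone. Enpp6, Myrf, Gpr17, Bmp4 and Nkx2-2 were at 0 in all cKO libraries. Over the WT libraries Enpp6 and Myrf had 51 and 57 counts, but Gpr17, Bmp4 and Nkx2-2 only 6, 3 and 2. Myelinating oligodendrocyte genes summed to 2.00 to 10.8 CPM in cKO and 1156 to 1817 CPM in WT, and Cnp, an enzyme of myelin membranes, was called lower after passing the filter through its WT counts alone. Of those 10 genes 7 were at 0 in every cKO library and 4 (Mobp, Mal, Opalin and Ermn) at 0 in every WT library. Cnp had 8 counts over the cKO libraries and 1575 over the WT libraries, beside 54 and 2615 for Pdgfra. Whether the stages differ from each other in their change was not tested.

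**Figure D4:**
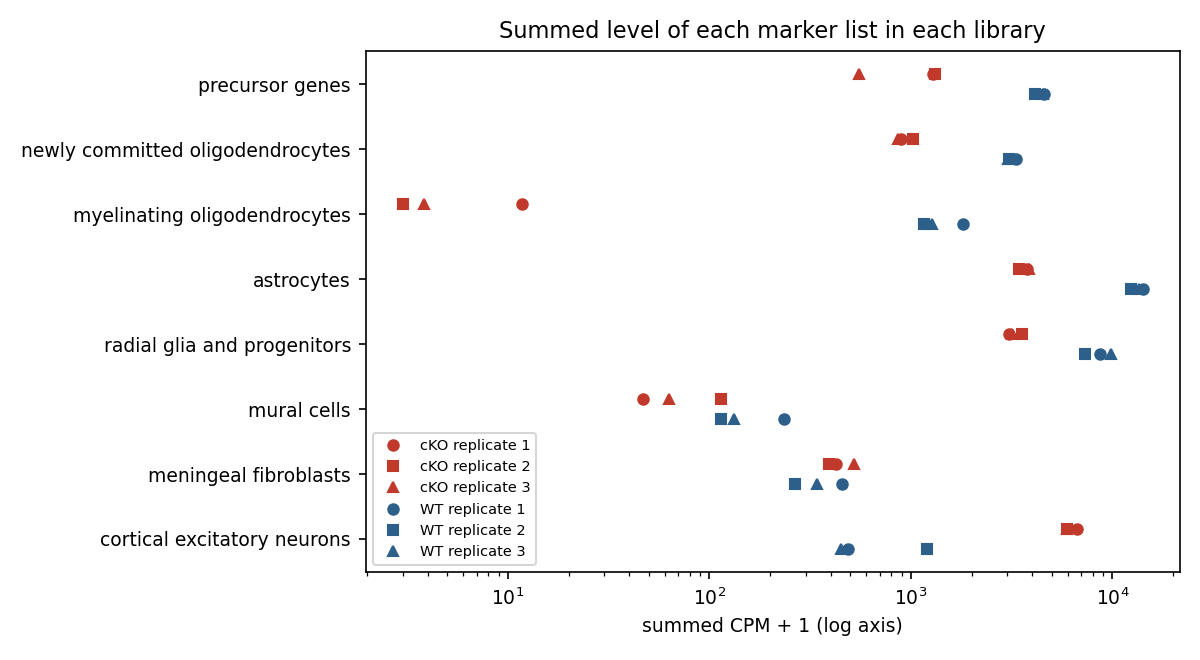
Summed CPM + 1 of each marker list in each library on a log axis, cKO in red above WT in blue, with 1 symbol per replicate. Precursor, committed, myelinating, astrocyte and radial glia sums are lower in every cKO library than in every WT library, and cortical excitatory neuron sums are higher. The fibroblast sum leaves out Pdgfra.

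Astrocyte and radial glia markers, which share Ptprz1 with precursors, were lower too. The 12 astrocyte genes summed to 3437 to 3874 CPM in cKO and 12390 to 14130 CPM in WT, with Aldoc and Apoe among the genes called lower, a median of −1.97 and Gjb6 at 0 in all libraries. The 12 radial glia and progenitor genes summed to 3062 to 3555 CPM in cKO and 7290 to 9825 CPM in WT, with Fabp7 lower among 10 tested, and a median of −1.52. The log2 fold change of Ptprz1, −1.65, lay between these medians, and the part of these cells in it was not tested.

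For the cells that share Cspg4 or Pdgfra with precursors, mural markers summed to 45.7 to 113.1 CPM in cKO and 113.3 to 234 CPM in WT, with 0 of 4 tested genes called by edgeR (2 lower at an unadjusted p below 0.05, 1 with DESeq2, 0 with limma-voom) and a median of −0.85. Acta2 and Des were at 0 in all cKO libraries, with 3 and 2 counts over the WT libraries. Kcnj8 was at 0 in all WT libraries, with 31 counts in cKO replicate 2 alone. Meningeal fibroblast markers without Pdgfra summed to 389 to 522 CPM in cKO and 264 to 456 CPM in WT. Of those, Lum was at 0 in all libraries and Dcn at 0 to 2 counts, and Igfbp2, Col3a1 and Col1a2 stood at 0.26 (SE 0.36), 0.92 (SE 0.60) and −0.30 (SE 0.70). The WT level of Pdgfra was 794 to 1003 CPM. The part of mural cells in the Cspg4 values and of fibroblasts in the Pdgfra values was not tested.

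Endothelial markers summed to 38.0 to 76.6 CPM in cKO and 112 to 240 CPM in WT, with 0 of 4 tested genes called by edgeR (3 lower at an unadjusted p below 0.05, 1 with DESeq2, 0 with limma-voom), a median of −1.54 and Cldn5 at 0 in all libraries. Microglia markers summed to 130 to 433 CPM in cKO and 217 to 691 CPM in WT, with a median of −0.52. Of 5 tested genes 0 were called (edgeR, 0 at an unadjusted p below 0.05, 0 with DESeq2 and limma-voom). Tmem119 was at 0 in all libraries. P2ry12 was at 0 in all cKO libraries, with 53 counts in WT replicate 3 alone. The cortical excitatory neuron markers, whose sums stand above, had a median of 3.63 over 9 tested genes, with 0 markers at 0 in all cKO libraries against 2 (Neurod2 and Bcl11b) in all WT libraries. Neurod2 was called higher, having passed the filter through its cKO counts alone. Bcl11b had only 4 counts over the cKO libraries. Axonal neuronal mRNAs summed to 10720 to 21150 CPM in cKO and 9835 to 12120 CPM in WT, with a median of 0.71. Of 6 tested genes 0 were called by edgeR (2 higher at an unadjusted p below 0.05, 2 with DESeq2, 0 with limma-voom). Nefm was at 0 in all cKO libraries and had 2 counts over the WT libraries. The part of these other cells in the lower precursor values was not tested.

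**Figure D5:**
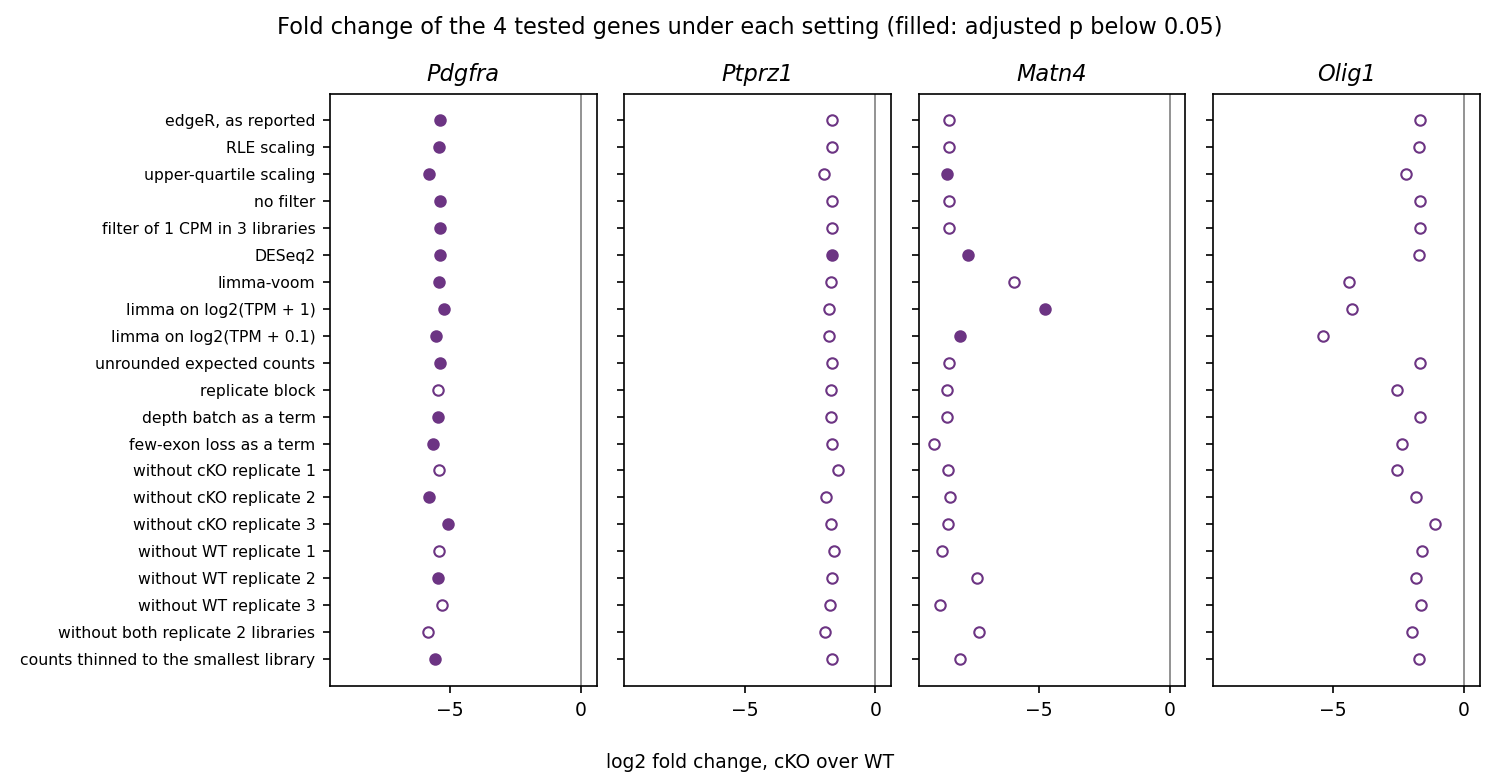
Log2 fold change, cKO over WT, of the 4 tested precursor genes under the reported edgeR fit and 20 alternatives, filled where the adjusted p is below 0.05. Pdgfra is filled in 15 of 20 alternatives, and values stay below 0 for all 4 genes. Matn4 has 0 counts in cKO, so its fitted value depends on the method's prior count.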

How the data were processed

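The authors deposited 1 RSEM table per library, with expected counts (estimated fragments per transcript, not normalized), TPM and the percent of a gene's TPM per transcript, per the file headers. Per the submitters' processing notes, tools were STAR 2.7.10b and RSEM 1.3.3, and the build was mm10. For the annotation release and the strand setting, the sources used here give no entry. Other deposited columns, per the file headers, gave transcript lengths. Groups and replicate numbers came from sample titles. Nothing in the labels says that libraries came from separate animals, and the p-values speak for differences among these 6 libraries, which may be technical.

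Expected counts were summed per gene (24411 genes) and rounded. All 6 libraries were fitted in edgeR 4.0.16 (R 4.3.3) by quasi-likelihood on genotype alone, after filterByExpr (minimum count 10) and TMM scaling. A call needs p below 0.05 after Benjamini-Hochberg adjustment across 5918 tested genes. CPM used the same scaling, on which 1 count equals 0.803 to 1.41 CPM and 3 counts, taken as the floor under a zero, equal 2.41 to 4.24 CPM. Ratios of pooled counts have exact 95% conditional intervals. Intervals and floors cover counting error only. Members below the filter got an exact permutation test of CPM. Each SE was worked back as the size of the log2 change divided by the root of F. Without a strand setting, antisense reads cannot be told apart from sense reads, which bears on Pdgfra, Matn4, Olig1 and Lhfpl3, whose exons overlap a gene on the other strand. Positions, exon numbers and transcripts came from GENCODE M21 (GRCm38, the assembly of mm10), promoters from RefSeq (GRCm38.p6), where 6 of the 8 genes had an entry. Exon numbers matched 23880 genes by accession and 308 by symbol.

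The members, gene lists and tests were chosen with earlier results of these data known. Named genes are all 8 members, up to 4 tested genes with the smallest p in each list, the 6 genes nearest to Pdgfra, and Mettl14. Pdgfa, Sox10, Neu4, Dcn, Lum and genes named as being at 0 were added after their values were seen. The alternatives tried were scaling by RLE or by upper quartile, no filter or a filter of 1 CPM, DESeq2 1.42.0, limma-voom (limma 3.58.1), limma on log2(TPM + 1) and log2(TPM + 0.1), expected counts left unrounded, a block for replicate number, terms for depth batch and few-exon loss, thinned counts, a threshold of 0.1, and leaving out libraries. Some genes of the marker lists are not reported here.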

Additional observations from a re-analysis of the deposited data

How the results depend on the processing

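Over 20 alternatives the log2 fold change of Pdgfra stayed between −5.86 and −5.09, and 15 called it. Its call also ended with the replicate block (edgeR adjusted p = 0.110) and without both replicate 2 libraries (0.142). Ptprz1 ranged over −1.97 to −1.44, Olig1 over −5.41 to −1.10 and the fitted value of Matn4 over −9.02 to −4.77, and 0 of the 4 changed direction. Genes higher in cKO numbered 29, against 250 with DESeq2, 11 with depth batch as a term, 12 with few-exon loss as a term, with a filter of 1 CPM or with no filter, 1 with the replicate block, 0 without both replicate 2 libraries, and 0 to 28 when 1 library was left out. Genes lower numbered 25, against 179, 8, 7, 10, 10, 0, 0 and 0 to 14 under the same settings in that order. Where edgeR called 0 genes, 573 to 740 had an unadjusted p below 0.05. Precursor genes lower numbered 1, against 3 with DESeq2, 2 with upper-quartile scaling and with limma on log2(TPM + 1) or log2(TPM + 0.1), 0 with the replicate block and without both replicate 2 libraries, and 0 to 1 when 1 library was left out. Upper-quartile scaling moved the median log2 fold change of all genes to −0.22, against 0.07. The cause of these shifts was not tested. The labels do not say that a shared replicate number marks a pair, so the block is given as an alternative only. The deviations of same-numbered libraries correlated at 0.05, 0.456 and 0.155 for replicates 1 to 3. Those of different-numbered libraries correlated at −0.313 to 0.203, so the replicate 2 pair was the highest of all. The replicate 2 libraries also share the highest totals and the shortest mean fragment lengths. C1ql1, Olig2 and Sox10 had 12 counts or fewer per group, and what keeps them low was not tested.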
